A study of Homo sapiens with 4 samples.

Results

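The interleukin-1 (IL-1) and interleukin-6 (IL-6) families were followed in the human glioma line U87MG, an established cell line, through 10 genes: the ligand genes IL1A, IL1B, IL6 and LIF, the receptor genes IL1R1, IL1RAP, IL6ST, OSMR and LIFR, and PTX3, a secreted pentraxin. All probe sets whose platform annotation gives exactly 1 of these symbols were kept, which made 32 probe sets out of 49293 on the array, and 10 genes out of 18132. The genes were chosen by family and by their measured log2 differences between these miR-490 and control arrays, which were already in view, so those differences are given as a description with no test. Control cells carried the empty vector PCDNA3.1 (+), named PCDNA for short, and the other cells carried PC-490, a vector that overexpresses the microRNA miR-490. Both groups were therefore transfected cells of the same line, grown in multiwell plates, and RNA was taken 48 h after transfection. Each group has 2 PrimeView 3' expression arrays, hybridised with biotinylated RNA made from 100 ng of total RNA. The values are log2 expression by RMA, which makes the arrays' distributions alike, so 1 unit is a doubling. Neither the promoter that drives the microRNA nor the share of cells that took up a vector is given in the sources used. Nothing in the labels tells whether the replicates came from separate cultures, so errors and p-values cover the spread between arrays alone, and that spread may be technical.

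IL-1 alpha and IL-1 beta are inflammatory cytokines that bind the receptor IL1R1, which then recruits the accessory protein IL1RAP and signals through MYD88 to NF-kB and stress kinases. IL-6 and LIF belong to a family whose receptors share the signalling chain gp130, encoded by IL6ST. LIF binds LIFR together with gp130, oncostatin M can bind OSMR together with gp130, and the assembled receptors activate JAK kinases and the transcription factor STAT3. IL1B, IL6 and PTX3 are classic genes of the inflammatory response, and IL-1 is a known inducer of IL6, LIF and PTX3 in many cell types, astrocytes and glioma cells among them.

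The sequences below are shown because the microRNA is what differed between the groups and because the promoters belong to the ligand and pentraxin genes with the lowest values relative to control. A microRNA recognises its targets mainly through its seed, bases 2 to 8, printed in capitals. Both mature strands lie on chromosome 7 of GRCh38.p14, plus strand, miR-490-5p at 136903205 to 136903224 and miR-490-3p at 136903242 to 136903263 (RefSeq).
hsa-miR-490-5p: cCAUGGAUcuccaggugggu
hsa-miR-490-3p: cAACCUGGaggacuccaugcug
The seeds of the strands differ, so each strand would pair with its own set of messages. The level of the microRNA was not analysed here, nor were target sites in the members' transcripts.

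The 250 bases before the start site were taken from RefSeq promoters (GRCh38.p14) for 9 of the 10 genes, 15 start sites in all, while LIF had no entry. Capitals mark the matches to 5 motifs searched on both strands: the kappaB consensus of NF-kB, AP-1 (TGANTCA), STAT (TTCNNNGAA), C/EBP (TTGCNNAA) and the TATA box (TATAAA). The stretches of IL1B (chr2:112836780-112837029, minus strand), IL6 (chr7:22726950-22727199, plus strand) and PTX3 (chr3:157436600-157436849, plus strand) read as follows, each 5′ to 3′ along its gene.
IL1B: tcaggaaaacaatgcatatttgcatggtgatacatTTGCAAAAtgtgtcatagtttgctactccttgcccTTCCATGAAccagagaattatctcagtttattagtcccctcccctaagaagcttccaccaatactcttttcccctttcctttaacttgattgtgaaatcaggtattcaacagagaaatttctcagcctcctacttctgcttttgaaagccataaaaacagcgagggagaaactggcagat
IL6: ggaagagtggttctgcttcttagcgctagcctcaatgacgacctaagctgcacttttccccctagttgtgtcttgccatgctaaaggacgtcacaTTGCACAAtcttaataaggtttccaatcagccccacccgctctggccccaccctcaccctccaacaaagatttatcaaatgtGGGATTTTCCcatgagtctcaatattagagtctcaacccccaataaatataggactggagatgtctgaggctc
PTX3: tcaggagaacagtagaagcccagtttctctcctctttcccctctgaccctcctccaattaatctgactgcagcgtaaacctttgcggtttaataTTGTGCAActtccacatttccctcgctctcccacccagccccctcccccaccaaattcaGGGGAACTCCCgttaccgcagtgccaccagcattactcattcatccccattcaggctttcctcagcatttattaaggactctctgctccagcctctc

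IL6 held a kappaB match from -73 to -64 relative to the start site, and PTX3 held 2 overlapping kappaB matches within -97 to -87. Both also held a C/EBP match, from -155 to -148 in IL6 and from -156 to -149 in PTX3. IL1B held a C/EBP match from -215 to -208 and a STAT match from -180 to -172. Among the members, kappaB matches were found for 3 genes, IL6, PTX3 and IL6ST, and 9.96% of all 35116 promoters of this length held one. C/EBP matches were found for 5 genes (9.05% of all promoters), STAT matches for 3 (6.57%) and AP-1 matches for IL1A alone (6.57%). TATAAA matches were found for 3 genes (10.7%), all between -239 and -119, on either strand. A gene counted if any of its start sites held a match, and some genes had several, while the shares are of single promoters. The counts and shares are therefore not like for like. These matches are letters in a window and were not tested as binding sites.

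No single transcript separated the groups by the test across the array. With limma and Benjamini-Hochberg adjustment over all 49293 probe sets, 0 had an adjusted p under 0.05 (0% of them), with 0.90 as the lowest adjusted value. Without adjustment, 2537 probe sets had a limma p under 0.05: 1224 were lower with miR-490 (2.48% of all) and 1313 higher (2.66%). Array medians were 5.15 to 5.17. Log2 differences between the control arrays had an SD of 0.182 across probe sets, those between the miR-490 arrays 0.162, and those between arrays of different groups 0.162 to 0.176. An exact two-sided permutation test of 2 arrays against 2 cannot go below p = 0.333.

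U87MG was checked against glial and leukocyte markers, since leukocytes also make these cytokines. Of 8 astroglia and glioma markers, VIM (13.90 to 13.92 over the 4 arrays) and CD44 (11.82 to 12.14), which are also mesenchymal markers, were far above the array median. From the same list S100B (3.26 to 3.55), OLIG2 (3.59 to 3.75), SOX2 (4.77 to 5.05), NES (at most 4.30) and AQP4 (2.64 to 2.78) were below it, and GFAP (5.56 to 5.81) was above it. With miR-490, 5 of the 8 had lower and 3 higher means (median log2 difference -0.045). Of 8 leukocyte and microglia markers measured, each by its probe set of highest mean, 6 were lower on average in the miR-490 arrays and 2 higher (median log2 difference -0.087). Over all probe sets 47.8% had lower means and the median was 0.00. Further sets of these markers went both ways: 4 of AIF1 gave 0.085 to 0.39, 5 of PTPRC -0.11 to 0.205, and 1 of CD3E -0.10. The summed log2 level of the 8 sets of highest mean was 39.20 and 39.58 in the controls and 38.64 and 38.93 with miR-490. The pan-leukocyte marker PTPRC (2.43 to 2.62) and the monocyte marker CD14 (3.15 to 3.45) were below the array median, and so were ITGAM (3.10 to 3.42), AIF1 (4.13 to 4.47) and the T cell marker CD3E; a value on this scale does not reach 0. CD3E read 3.47 and 3.58 in the controls and 3.17 and 3.30 with miR-490, a difference of -0.29 (unadjusted p = 0.0201, adjusted p = 0.90 by limma). The other 3 markers were above the median: TYROBP, an adaptor of myeloid and natural killer cells, at 5.60 to 5.87, CSF1R, the receptor of a macrophage growth factor, at 6.37 to 6.58, and CD68, a lysosomal protein, at 10.16 to 10.25. Their part in the cytokine values was not tested.

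The ligand genes and PTX3 had lower means in the miR-490 arrays, whereas most receptor genes lay close to their control values. For each gene the set whose mean over the arrays was highest is called leading here, and a set with a mean below the median of all probe sets is called dim. By the leading sets, IL6 and IL1B were at 0.755 and 0.76 of the control level, PTX3 at 0.818, and IL1A and LIF at 0.859 each. Among receptors IL6ST was at 0.914, and the other 4 were at 0.973 to 1.02. In bulk RNA, fewer cells that make a transcript and less transcript per cell cannot be told apart.

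IL1B encodes IL-1 beta, which is made as a precursor and needs cleavage before it is active. Its only probe set (11719916_at) read 9.67 and 9.68 in the control arrays and 9.29 and 9.27 in the miR-490 arrays. The replicates of each group lay within 0.02 of each other, and the groups were 0.38 apart at their nearest values. The log2 difference, miR-490 minus control, was -0.395 (SE 0.0638, n = 2 per group; the SE is limma's moderated one, which draws on the spread of all probe sets and so exceeds what these replicates alone give).

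IL1A encodes IL-1 alpha, whose precursor is already active and which acts through the same receptor. It was dimmer, at 5.93 and 5.89 in the controls and 5.77 and 5.61 with miR-490 (11725198_at). The groups did not overlap, but the miR-490 arrays were 0.16 apart, more than the gap of 0.12 between groups. The difference was -0.22 (SE 0.083), and without miR-490 replicate 2 it was -0.14.

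IL6 encodes the cytokine that names the gp130 family. Its leading set (11746463_a_at) read 9.26 and 9.17 in the controls and 8.82 and 8.80 with miR-490. The higher miR-490 array was 0.35 below the lower control array, and the difference was -0.405 (SE 0.0701). A second IL6 set (11760425_a_at), below the array median, read 4.28 and 4.12 against 4.17 and 4.10. There the groups overlapped, with a difference of -0.065 (SE 0.0851), and the mean of both sets gave -0.235.

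LIF encodes leukemia inhibitory factor. Its leading set (11758619_s_at) read 7.89 and 7.98 in the controls and 7.70 and 7.73 with miR-490, so both miR-490 arrays were lower. The difference was -0.22 (SE 0.0705). The other LIF sets did not share this pattern. The set 11726498_at read 5.90 and 5.95 against 5.91 and 5.88, and the dim set 11726497_at read 3.71 and 3.58 against 4.04 and 3.69. Their differences were -0.03 (SE 0.0662) and 0.22 (SE 0.137), both with overlapping groups, and the mean of all 3 LIF sets gave -0.01.

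PTX3 encodes a long pentraxin, a soluble pattern recognition protein. Its only set (11718157_s_at) read 10.11 and 9.96 in the controls and 9.75 and 9.74 with miR-490. Both miR-490 arrays were below both controls by at least 0.21, and the difference was -0.29 (SE 0.0801). The suffixes _s_at and _x_at mark sets whose probes can match more than 1 transcript, which holds for the leading sets of LIF, PTX3, IL6ST and LIFR.

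**Figure D1:**
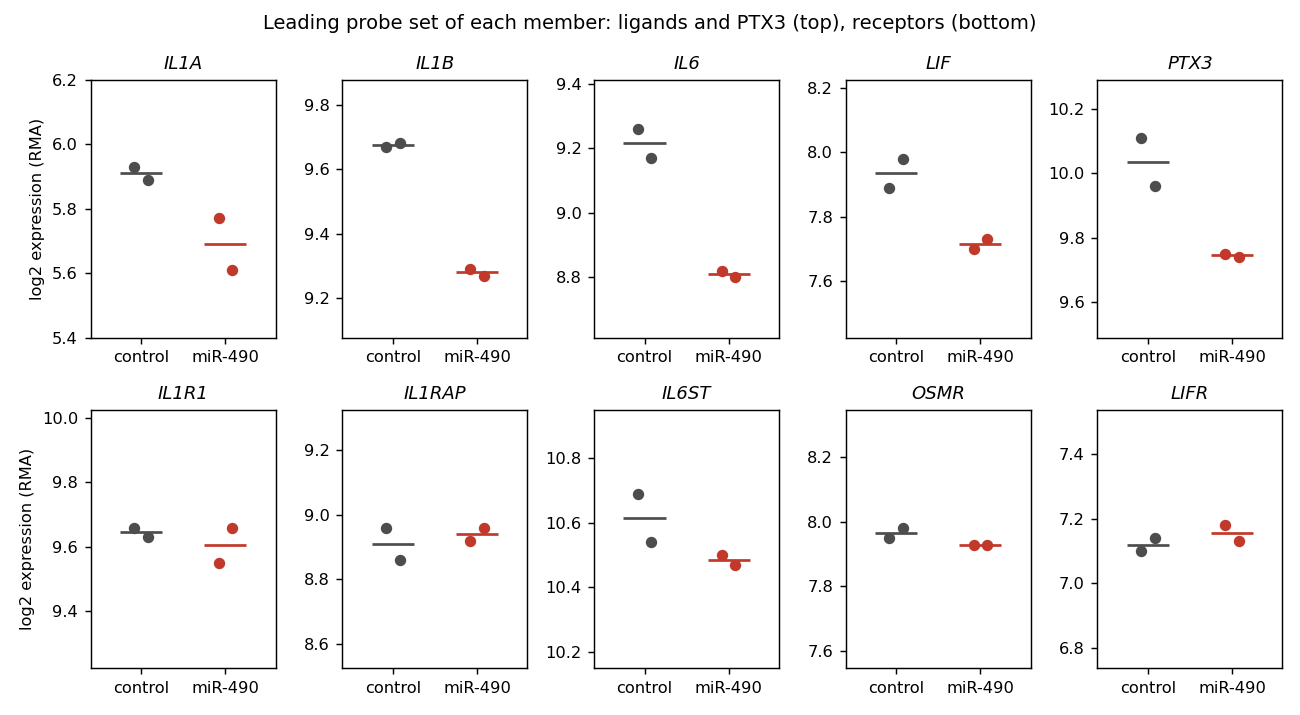
Log2 expression (RMA, vertical axis, a span of 0.8 in every panel) of the leading probe set of each gene in the 2 control arrays (grey points) and the 2 miR-490 arrays (red points), with the group mean as a line. The miR-490 points lie below the control points for IL1A, IL1B, IL6, LIF and PTX3, and also, by gaps of only 0.04 and 0.02, for IL6ST and OSMR, while the groups overlap for IL1R1, IL1RAP and LIFR. Of the 18132 leading sets of all genes, 2914 had both miR-490 arrays below both controls.

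IL1R1 encodes the signalling receptor of IL-1. Its leading set (11718025_at) read 9.66 and 9.63 in the controls and 9.55 and 9.66 with miR-490, so 1 miR-490 array equalled the higher control. The difference was -0.04 (SE 0.0735). The dim set 11756953_a_at gave 0.135 (SE 0.162) with arrays of the same group over 0.3 apart. The sign of the IL1R1 difference depended on the arrays used, at 0.015 without miR-490 replicate 1.

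IL1RAP encodes the accessory protein that completes the IL-1 receptor. Its leading set (11729099_a_at) read 8.96 and 8.86 against 8.92 and 8.96, a difference of 0.03 (SE 0.0724) with overlapping groups, and -0.02 without control replicate 2. The set 11732585_a_at was the exception, at 6.34 and 6.36 in the controls and 6.25 and 6.13 with miR-490. Its groups did not overlap and its difference was -0.16 (SE 0.0747). The remaining 2 sets were below the array median, had overlapping groups and gave -0.155 and -0.11.

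IL6ST encodes gp130, the chain that IL-6, LIF and oncostatin M receptors share, and it had the most probe sets of the 10 genes. All 8 had lower means with miR-490, with differences from -0.245 to -0.025 and a median of -0.133, where 47.8% of all probe sets had lower means. In 3 of them the groups did not overlap, where 15.6% of all probe sets had both miR-490 arrays below both controls. The leading set (11759037_s_at) read 10.69 and 10.54 in the controls and 10.50 and 10.47 with miR-490. The groups were 0.04 apart, less than the 0.15 between the control arrays. Its difference was -0.13 (SE 0.0806), and it ranged from -0.055 without control replicate 1 to -0.205 without control replicate 2. The set 11759038_at was tighter, at 8.97 and 8.98 against 8.85 in both miR-490 arrays, with a difference of -0.125 (SE 0.0635). The set 11730757_a_at read 8.14 and 8.06 against 7.96 and 7.79, with a difference of -0.225 (SE 0.0881). These sets measure 1 gene and are not independent of each other, and 11753878_s_at and 11753879_x_at were designed on the same sequence record. In that pair and in 11753579_a_at, miR-490 replicate 2 was the lowest array and miR-490 replicate 1 lay within or above the control range.

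OSMR encodes the oncostatin M receptor. Its leading set (11733186_at) read 7.95 and 7.98 in the controls and 7.93 in both miR-490 arrays, a difference of -0.035 (SE 0.0642). Although these groups did not overlap, they were only 0.02 apart. Of the 5 OSMR sets 3 had lower means, 1 a higher mean and 1 (11733185_at) equal means of 6.945. The set 11759644_at stood apart from the others, at 6.19 and 6.22 against 6.03 and 5.97, with a difference of -0.205 (SE 0.0671).

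LIFR encodes the receptor of LIF. It was the only one of the 10 genes whose means were higher with miR-490 in every probe set. This held for 5 of 5 sets, where 24514 of all 49293 probe sets had higher means. The 5 sets measure 1 gene and are not independent of each other. The leading LIFR set (11722685_s_at) read 7.10 and 7.14 in the controls and 7.18 and 7.13 with miR-490. Its groups overlapped, with a difference of 0.035 (SE 0.0667). The difference was 0.155 (SE 0.109) for 11722687_a_at, 0.06 (SE 0.106) for 11758145_s_at and 0.025 (SE 0.0989) for 11722686_a_at, all with overlapping groups. Only the dim set 11722688_a_at had both miR-490 arrays, at 4.93 and 4.84, above both controls, at 4.60 and 4.65. Its difference was 0.26 (SE 0.0717).

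**Figure D2:**
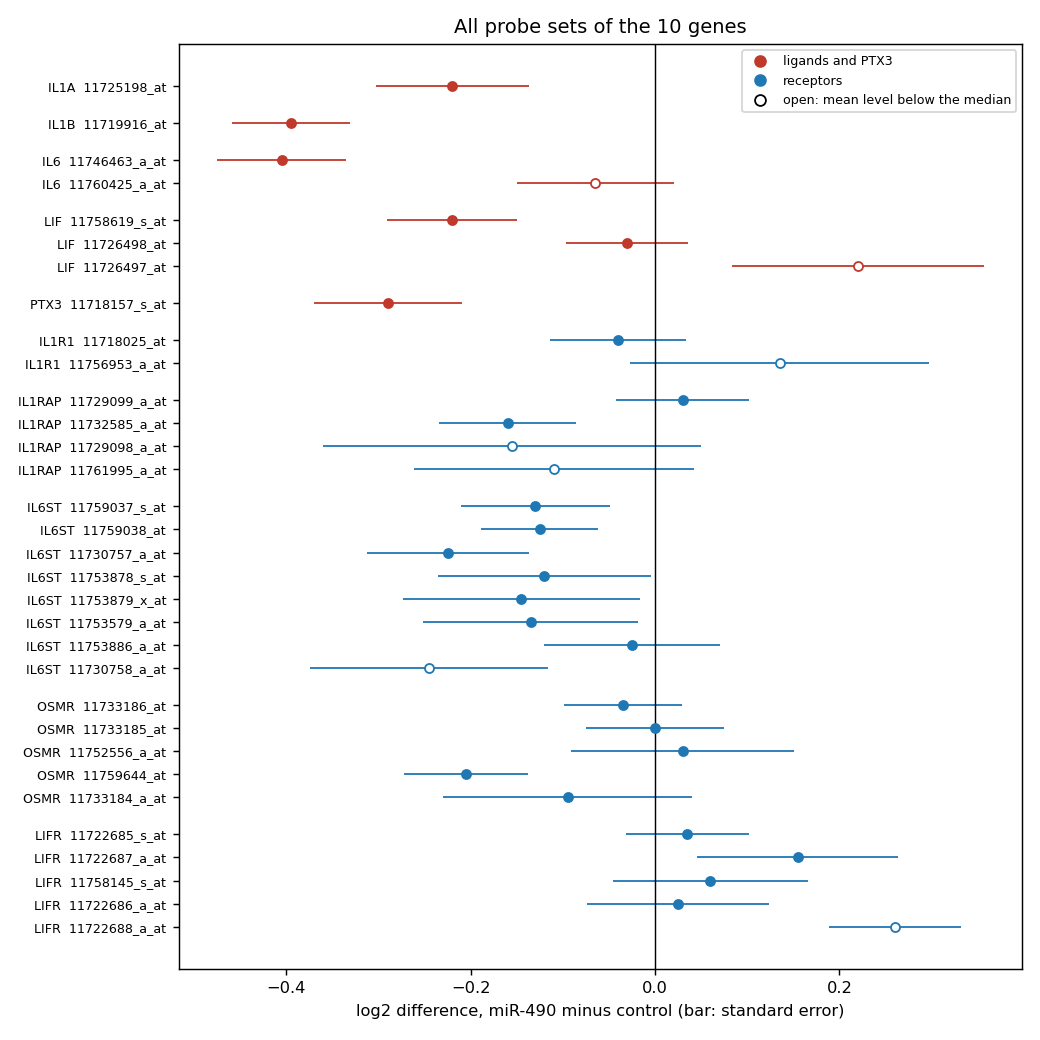
Log2 difference, miR-490 minus control (horizontal axis), with its standard error for all 32 probe sets of the 10 genes, red for ligands and PTX3 and blue for receptors. Open points have a mean level below the median of all probe sets. All 8 IL6ST points lie left of 0 and all 5 LIFR points right of it, while the LIF points lie on both sides.

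Counted over probe sets, 22 of the 32 had lower means with miR-490, 9 had higher means and 1 was equal, with a median log2 difference of -0.103. This median was -0.05 without miR-490 replicate 1, -0.055 without control replicate 1, -0.065 without miR-490 replicate 2 and -0.12 without control replicate 2. Over all probe sets 47.8% had lower means and the median was 0.00. Both miR-490 arrays were below both controls in 11 of the 32, where 15.6% of all probe sets met this, and above them in 1, where 15.6% of all probe sets did. Of the 25 member sets above the median level, 11 were below both controls, where 17.6% of all probe sets above that level met this. Since the genes were chosen with these values in view, nothing is read from these counts. The genes with a single set, IL1A, IL1B and PTX3, have no check from another probe set.

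The leading sets were also averaged by role, array by array. For each leading set the control mean was subtracted, and the deviations were averaged over the 5 ligand and pentraxin genes and over the 5 receptor genes. The ligand and pentraxin genes averaged 0.018 and -0.018 in the control arrays and -0.288 and -0.324 in the miR-490 arrays. The receptor genes averaged 0.021 and -0.021 in the controls and -0.035 and -0.021 with miR-490, so 1 miR-490 array equalled the lower control. The mean difference was -0.306 for the former and -0.028 for the latter. Over all member probe sets the split was narrower, with medians of -0.22 over the 8 ligand and pentraxin sets and -0.068 over the 24 receptor sets. Of these 24, 6 were below both controls and 1 above, where 15.6% of all probe sets on the array were below and 15.6% above. Averaging all sets of a gene gave -0.01 for LIF and -0.099 for IL1RAP, whose leading set had the opposite sign. The difference between these values was not tested, as the genes were chosen with them known.

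**Figure D3:**
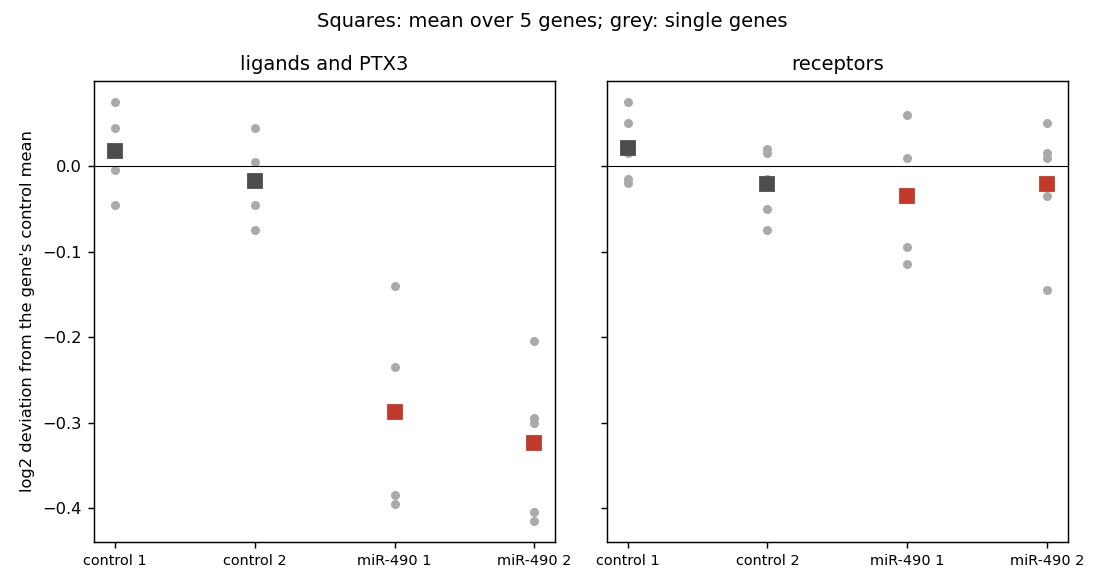
Deviation of each leading probe set from its own control mean (log2, vertical axis) in each of the 4 arrays, for the 5 ligand and pentraxin genes (left) and the 5 receptor genes (right); grey points are genes and squares their mean. The squares of the miR-490 arrays are at -0.288 and -0.324 on the left and at -0.035 and -0.021 on the right.

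Other genes of these pathways were taken from 4 lists of 74 genes, of which 68 were measured and the others were not analysed here. With limma and Benjamini-Hochberg adjustment over all probe sets, 0 of the 68 passed in either direction, with 0.90 as their lowest adjusted value. Taken without adjustment, at a limma p under 0.05, 4 were lower and 2 higher with miR-490, which is 5.88% and 2.94% of them, against 2.20% and 2.57% of the leading sets of all genes. The median log2 difference was -0.028, against 0.005 for the leading sets of all genes.

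Of the 31 measured genes of IL-1 ligands, receptors and signalling, 0 passed, and 18 had lower and 12 higher means, with a median of -0.025. IL1RN, the natural antagonist of the IL-1 receptor, read 7.69 and 7.64 in the controls and 7.41 and 7.46 with miR-490. Its groups did not overlap, and its difference was -0.23 (SE 0.0675, unadjusted p = 0.0208, adjusted p = 0.90 by limma), while its other set gave -0.02. IL1RL2, the receptor of IL-36 cytokines, was dim and read 3.05 and 2.91 against 3.45 and 3.23, with a difference of 0.36 (SE 0.106, adjusted p = 0.90 by limma). The decoy receptor gene IL1R2 gave 0.055, and the IL-1 family cytokine genes IL33 and IL18, both dim, gave -0.06 and -0.02. The 2 other IL33 sets gave -0.175 and -0.065. The adaptor gene MYD88 read 8.08 and 8.13 against 8.07 and 8.08 and gave -0.03, with 4 other sets from -0.095 to 0.135. The ubiquitin ligase gene TRAF6 gave -0.09. Both genes had overlapping groups in their leading sets.

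Of the 11 measured genes of other IL-6 family ligands and receptors, 0 passed, and 3 had lower and 7 higher means, with a median of 0.04. IL6R, the receptor chain that binds IL-6 itself, was below the array median. It read 4.19 and 4.39 in the controls and 4.31 and 4.20 with miR-490, with overlapping groups. Its difference was -0.035, and its 3 other sets gave -0.04 to 0.15. IL11, another gp130 cytokine, read 6.44 in both controls and 6.49 and 6.55 with miR-490. Its difference was 0.08 (SE 0.0663, adjusted p = 0.936 by limma), and its 2 other sets gave 0.135 and 0.145. EBI3, a subunit of IL-27, gave -0.195, IL27RA 0.085 and CNTFR 0.04, all 3 dim.

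Of the 8 measured genes of JAK and STAT signalling below gp130, 0 passed, and 6 had lower and 2 higher means, with a median of -0.053. STAT3, the main transcription factor of the pathway, read 8.90 and 8.97 in the controls and 8.86 in both miR-490 arrays. Its difference was -0.075 (SE 0.0674, adjusted p = 0.946 by limma), while its 2 other sets gave 0.13 and 0.14. JAK1 gave -0.03, and 0.06 without control replicate 2 and 0.02 without miR-490 replicate 2, while its 2 other sets gave -0.33 and -0.05. JAK2 gave -0.10, with other sets at -0.13 and 0.08. PIAS3, an inhibitor of STAT3, gave 0.09, with 4 other sets from -0.14 to 0.05. SOCS3, a feedback inhibitor that STAT3 induces, read 7.71 and 7.88 against 7.84 and 7.64. Its groups overlapped with a difference of -0.055, and its other set gave 0.33.

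Of the 18 measured pentraxins and acute phase targets, 0 passed, and 12 had lower and 6 higher means, with a median of -0.038. At an unadjusted p under 0.05 by limma, 3 of the 18 were lower and 0 higher, against 2.20% lower and 2.57% higher among the leading sets of all genes, and the list was drawn up with earlier results known. CEBPD, a transcription factor of the acute phase response, read 8.19 and 8.32 in the controls and 7.89 and 7.94 with miR-490. Its difference was -0.34 (SE 0.0779, unadjusted p = 0.00826, adjusted p = 0.90 by limma), and its 4 other sets gave -0.235 to -0.03. TNFAIP6, a hyaluronan-binding protein that also binds PTX3, read 8.35 and 8.42 against 8.18 and 8.06, a difference of -0.265 (SE 0.0779, adjusted p = 0.90 by limma). C3, the central complement component, read 8.85 and 8.93 against 8.72 and 8.64, a difference of -0.21 (SE 0.0733, adjusted p = 0.90 by limma). In these 3, the genes lower at an unadjusted p under 0.05 by limma, both miR-490 arrays were below both controls, which such a p makes likely. Over the list 4 of the 18 met this, where 15.6% of all probe sets did. CEBPB, the relative of CEBPD that was first described as a nuclear factor for IL-6, gave -0.045. BCL3, an NF-kB cofactor, gave 0.02, with 3 other sets from 0.03 to 0.105. The dim SERPINA3 and SAA1 gave 0.055 and -0.005, while the other SERPINA3 set gave -0.14.

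**Figure D4:**
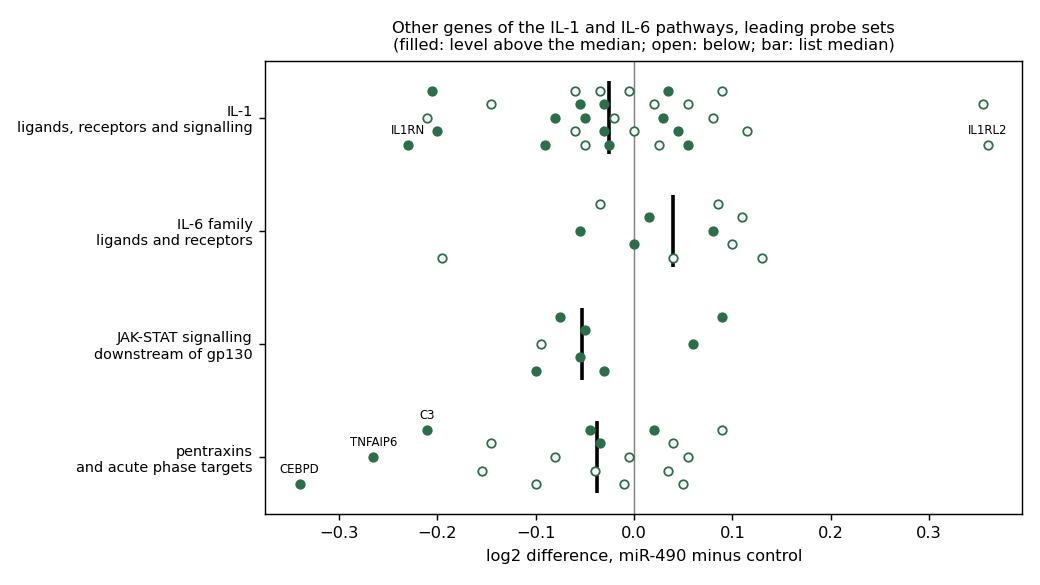
Log2 difference, miR-490 minus control (horizontal axis), of the leading probe set of 68 other genes in 4 pathway lists; filled points are above the median level, open points below it, and the bar is the list's median. The medians lie between -0.053 and 0.04, and CEBPD at -0.34 and IL1RL2 at 0.36 are the outermost points.

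The genes most like IL1B and IL6 in these arrays were sought by the root mean square distance between values centred on their own mean over the 4 arrays, among 22711 probe sets of other genes above the median level. The 3 nearest to IL1B were sets of ATP2B1 (0.0206), POSTN (0.0255) and RAB9B (0.0259). The 3 nearest to IL6 were sets of MMP3 (0.0164), QPCT (0.0173) and EPS8 (0.0268). MMP3, a matrix protease, read 7.73 and 7.60 in the controls and 7.25 and 7.24 with miR-490, beside 9.26, 9.17, 8.82 and 8.80 for IL6. ATP2B1, a calcium pump, read 6.45 and 6.46 against 6.06 and 6.00, beside 9.67, 9.68, 9.29 and 9.27 for IL1B. Of these 6 sets, those of RAB9B and MMP3 were the leading sets of their genes. A likeness over 4 arrays is a description and rests on the same difference between groups.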

How the data were processed

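The deposited log2 values come from RMA, run by the authors according to the submitters' processing notes, with software, version and settings not given in the sources used. They range from 1.72 to 14.24. Groups and replicate numbers come from the sample titles. The platform annotation names 1 gene for 44988 of 49293 probe sets, several for 1832 and none for 2473. The whole table entered a limma 3.58.1 fit under R 4.3.3 (lmFit, then eBayes with neither trend nor block nor filter), with 2 residual and 2.73 prior degrees of freedom. Tests were two-sided and p-values were adjusted by Benjamini-Hochberg, with 0.05 as the threshold. The members and lists were chosen with earlier results of these data known. The genes named from the lists were 20 set ones, where measured, and the 2 with the smallest p per list; the 3 nearest genes were named for likeness. SDs are over 2 arrays per group, and standard errors are limma's moderated ones, with a prior from all probe sets (median 0.0842); the number of arrays limits the precision. RMA equalises arrays and compresses dim signals. The fit was tested on simulated data of 49293 probe sets for the comparison of miR-490 with control. The simulated sets were independent, with variances drawn from the fitted prior, and few of them were changed. The fit recovered 0% of changes of 0.25 or 0.5 (log2), 44.8% of 1 and 90% of 2. The median was 3.5 false calls over 10 runs. Real probe sets need not be independent, so these rates hold for the simulated setting alone. The alternatives tried were centring on array medians, quantile normalisation, 1 probe set per gene, the mean over the sets of a gene, sets above the median level, an intensity trend, an ordinary test, each array left out, and the replicate number as a block. Figures were drawn with matplotlib 3.10.9.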

Additional observations from a re-analysis of the deposited data

How the results depend on the processing

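The count of probe sets past the adjusted threshold, over all and among the pathway genes, was 0 in each of the 12 alternatives. The share of member probe sets with both miR-490 arrays below both controls was 34.4%, where 15.6% of all probe sets met this. With 1 probe set per gene it was 70%, where 2914 of the 18132 leading sets of all genes met this. With 1 array left out it was 43.8% to 53.1%, highest without control replicate 2 and without miR-490 replicate 1. Fewer arrays make an overlap rarer, and the share over all probe sets was not computed for these settings. Since the genes were chosen with these values in view, nothing is read from the member shares. The share of pathway genes lower at an unadjusted p under 0.05 was 5.88%; it was 8.82% with each gene's probe sets averaged, 12.9% of the 31 above the median level, and 2.94% to 5.88% with 1 array left out, lowest without miR-490 replicate 1. The share of all probe sets higher at that level, 2.66%, was 1.75% without miR-490 replicate 2 and up to 3.43% with another array left out. Of the leading sets of all genes, 2.2% were lower at that level in the main fit. The share was 2.44% of all genes with probe sets averaged, and 2.95% of all probe sets above the median level. The pathway lists were drawn up with earlier results known, so nothing is read from their shares. Apart from the constructions named, the cause of the shifts between settings was not tested. Member differences changed sign in 4 of 120 alternatives, for IL1R1 and IL1RAP, and named pathway genes in 19 of 279. Many of these alternatives could not change a sign. The intensity trend, the ordinary test and the block refit the same values, as did 1 probe set per gene and sets above the median level. Centring on array medians shifts every difference of a leading set alike. The counts therefore do not measure how firm the signs are. Deviations of same-numbered arrays correlated at -0.0844 across probe sets. With 2 arrays per group this cannot tell whether same-numbered arrays shared a culture or batch. With the replicate number as a block 0 probe sets passed, and 1936 in place of 2537 had an unadjusted p under 0.05 by limma. Detection calls were not used here.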
